A study of Mus musculus with 2 samples.

Results

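The cells described are the Chgb-high cells of the Isl1CKO library, a group proposed as enterochromaffin-like for its high level of Chgb, the chromogranin B gene. The cells were selected on their own measured shares of Chgb, Ttr and insulin transcripts, so those shares are a description. A barcode counted as such a cell when it held at least 500 genes, at most 15% of its UMIs (unique molecular identifiers, counts of single transcripts) in mitochondrial genes, at least 4% in Chgb, under 5% in Ttr and under 20% in Ins1 and Ins2 together. The rule found 436 cells among the 2987 Isl1CKO cells that passed the first 2 limits, out of 5483 such cells in the series. The share was 14.6% (exact binomial 95% interval 13.3 to 15.9, covering counting error only). The tissue was islets of Langerhans from mice 9 days old, taken through a sort for cells carrying the red reporter tdTomato. The Isl1CKO library had the genotype Neurod1 Cre/+; Isl1f/f, in which the floxed LIM-homeodomain gene Isl1 can be recombined on both chromosomes. The control library had the genotype Neurod1 Cre/+; Isl1f/+, so Cre under Neurod1 and at least 1 floxed allele were present in both. Neurod1 is active across the endocrine pancreas, so no single islet cell type was targeted. Each library pooled 6 animals, and no genotype had a second library, so no difference below has a replicate check and no test was run.

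Enterochromaffin cells are endocrine cells of the gut lining that make serotonin. Tph1 carries out the rate-limiting hydroxylation of tryptophan, Ddc the decarboxylation that follows, and Slc18a1 loads the amine into granules that also hold chromogranins A and B. In the gut they arise from precursors that express Neurog3, and the transcription factors Fev and Lmx1a are associated with their differentiation. In the pancreas Neurog3 and Fev mark precursors of islet cells, and beta cells can themselves make serotonin.

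Promoter sequences are shown for Chgb, which chose the cells, for Fev, which nearly all of them expressed, and for Tph1, which few of them did. Each runs from 250 bases before to 50 after a transcription start in RefSeq, build GRCm38.p6, at chr2:132781392-132781691 on the plus strand for Chgb, chr1:74885359-74885658 on the minus strand for Fev, and chr7:46667328-46667627 on the minus strand for Tph1, for which another listed start is not shown. All are written 5′ to 3′ on the gene's strand, and capitals mark the core of the cAMP response element, TGACG, on either strand.
Chgb: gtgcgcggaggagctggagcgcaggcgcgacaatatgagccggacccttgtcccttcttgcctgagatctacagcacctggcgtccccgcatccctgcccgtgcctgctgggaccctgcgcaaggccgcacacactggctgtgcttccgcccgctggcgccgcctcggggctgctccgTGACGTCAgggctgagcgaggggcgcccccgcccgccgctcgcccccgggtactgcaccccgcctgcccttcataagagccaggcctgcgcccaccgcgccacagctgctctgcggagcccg
Fev: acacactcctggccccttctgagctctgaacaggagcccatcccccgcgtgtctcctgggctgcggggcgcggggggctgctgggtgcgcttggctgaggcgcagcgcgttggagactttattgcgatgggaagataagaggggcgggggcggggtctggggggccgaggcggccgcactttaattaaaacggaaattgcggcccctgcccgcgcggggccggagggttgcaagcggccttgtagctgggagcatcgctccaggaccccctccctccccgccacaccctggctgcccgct
Tph1: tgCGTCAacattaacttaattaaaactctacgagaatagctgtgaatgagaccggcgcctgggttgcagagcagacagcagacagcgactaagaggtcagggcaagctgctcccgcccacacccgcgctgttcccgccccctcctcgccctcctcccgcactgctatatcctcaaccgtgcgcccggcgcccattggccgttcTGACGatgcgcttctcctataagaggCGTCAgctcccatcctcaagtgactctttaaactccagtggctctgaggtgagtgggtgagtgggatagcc
The Chgb promoter held the full palindrome TGACGTCA once, 72 bases before the start, where TGACG is read on each strand. The Tph1 promoter held TGACG 3 times without the full palindrome, and the Fev promoter did not hold it. Of 32851 RefSeq promoters of this length, 1.79% held TGACGTCA and 20.8% held TGACG on either strand. The homeodomain core TAATTA occurred once in the Fev and once in the Tph1 window, and in 5.29% of all promoters. The E-box letters CANNTG occurred 2 times in the Chgb and 1 time in the Tph1 window, and in 72.3% of all promoters. These are matches of letters, not measured binding sites.

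The Isl1CKO matrix held 3020 barcodes and 78068592 UMIs, and its lowest barcode had 4882 UMIs. The control matrix was not filtered to cells, and 2504 of its barcodes were taken as cells at a threshold of 6826 UMIs, of which 2496 passed the limits above. The libraries shared 4 cell barcodes, 1 of them between a Chgb-high cell and a control cell. Isl1 transcripts did not check the genotype label: the Chgb-high cells had 504 CPM (each gene's UMIs summed over the cells of a population and scaled to 1000000), the other Isl1CKO cells 453 and the control cells 254, and the 32 control cells that passed the same limits 193. The sources used here do not name the floxed exon, and counts at the 3′ end can come from a recombined allele. Scrublet called 5 of 2987 Isl1CKO cells doublets, 0.167%, too few to have worked, and none of the 436, so doublets were kept.

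The 436 cells held 8428927 UMIs, with a median of 18511.5 per cell (5634 to 46532) and a median of 4662 genes, against a median of 26788 UMIs in the other 2551 Isl1CKO cells. Mitochondrial genes took a median of 2.20% of their UMIs. Chgb, at chr2:132781278-132795079 (GENCODE M21, GRCm38), took from just over 4% to 20.9% of a cell's UMIs, with a median of 6.50%. Ttr, the transthyretin gene abundant in alpha cells, had a median of 0.340%. Ins1 and Ins2, the mouse insulin genes, ran from 0.0270% to 19.7% with quartiles of 0.185%, 2.01% and 5.32%. Insulin transcripts were thus spread over the whole range that the rule allowed, while Ttr was low in nearly every cell. The other Isl1CKO cells fell into 383 with at least 20% insulin (insulin-high), 1439 with less insulin and at least 5% Ttr (Ttr-high), and cells under all 3 limits, of which 647 held a Fev UMI (Fev-positive Chgb-low) and 82 none.

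**Figure D1:**
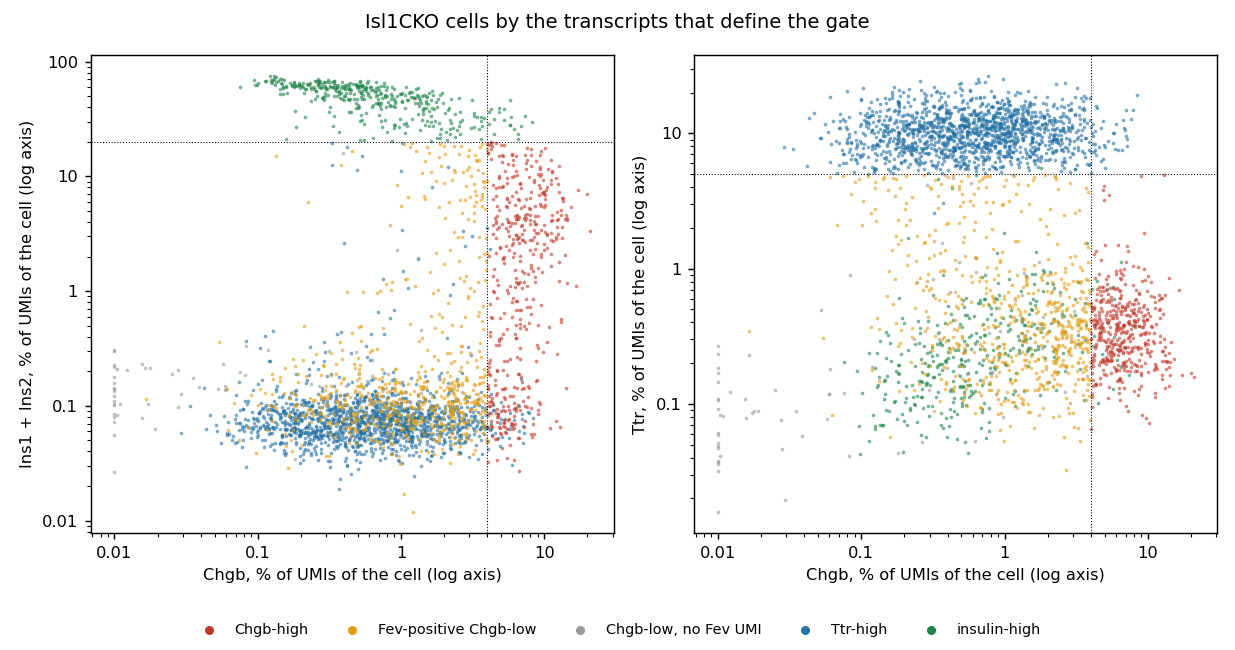
Share of each Isl1CKO cell's UMIs in Chgb (both x axes, log) against Ins1 and Ins2 (left y axis, log) and Ttr (right y axis, log), 1 point per cell, with dotted lines at the limits of 4% Chgb, 20% insulin and 5% Ttr; Chgb values under 0.01% are drawn at 0.01%. The 436 Chgb-high cells (red) adjoin the Fev-positive Chgb-low cells (orange) at the Chgb limit without a gap and spread over the insulin axis from 0.0270% to 19.7%.

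The Chgb limit cut through a continuous range. The 96 cells just inside it, with 4% to 5% Chgb, had 493 CPM Fev, 40.3 CPM Slc18a1, 209 CPM Ddc, 184 CPM Amigo2 and 8.18 CPM Tph1. The 99 cells just outside, with 3% to 4% Chgb, had 396 CPM Fev, 26.5 CPM Slc18a1, 198 CPM Ddc, 162 CPM Amigo2 and 4.83 CPM Tph1. The cells on either side of the line were thus close in these transcripts. The insulin limit had 22 cells inside between 15% and 20% and 3 outside between 20% and 25%, and the Ttr limit had 3 cells inside between 4% and 5% and 1 outside between 5% and 6%. In all, 38 cells met the Chgb and insulin limits but not the Ttr limit, and 19 met the Chgb and Ttr limits but not the insulin limit.

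Chgb, Slc18a1, Ddc, Fev and Amigo2 were all higher in the Chgb-high cells than in the other Isl1CKO cells, and Tph1 was not clearly so. Because Chgb chose the cells, its 76047 CPM against 10906 CPM is a description. Fev, an ETS-family factor of serotonergic neurons and islet precursors (chr1:74881509-74885419), had 467 CPM (Poisson 95% interval 453 to 482), against 192 CPM in the rest, a log2 CPM ratio of 1.28. Ddc (chr11:11814101-11898144) had 234 CPM against 92.8 CPM, a log2 ratio of 1.34. Slc18a1, the vesicular monoamine transporter of endocrine cells (chr8:69037711-69089235), had 45.3 CPM (40.9 to 50.1) against 7.02 CPM, a log2 ratio of 2.69 (exact 95% interval 2.49 to 2.89). Amigo2, an adhesion molecule (chr15:97244125-97247287), had 227 CPM against 46.8 CPM, a log2 ratio of 2.28. The order of the populations after the Chgb-high cells differed by gene. For Fev it was Fev-positive Chgb-low cells (368 CPM), Ttr-high cells (193 CPM) and insulin-high cells (79.5 CPM). Ddc and Amigo2 came next highest in insulin-high cells, at 135 and 102 CPM. Amigo2 was close to that in Fev-positive Chgb-low cells, at 100 CPM. Insulin took a median of 50.4% of UMIs in insulin-high cells, which lowers the CPM of their other genes.

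**Figure D2:**
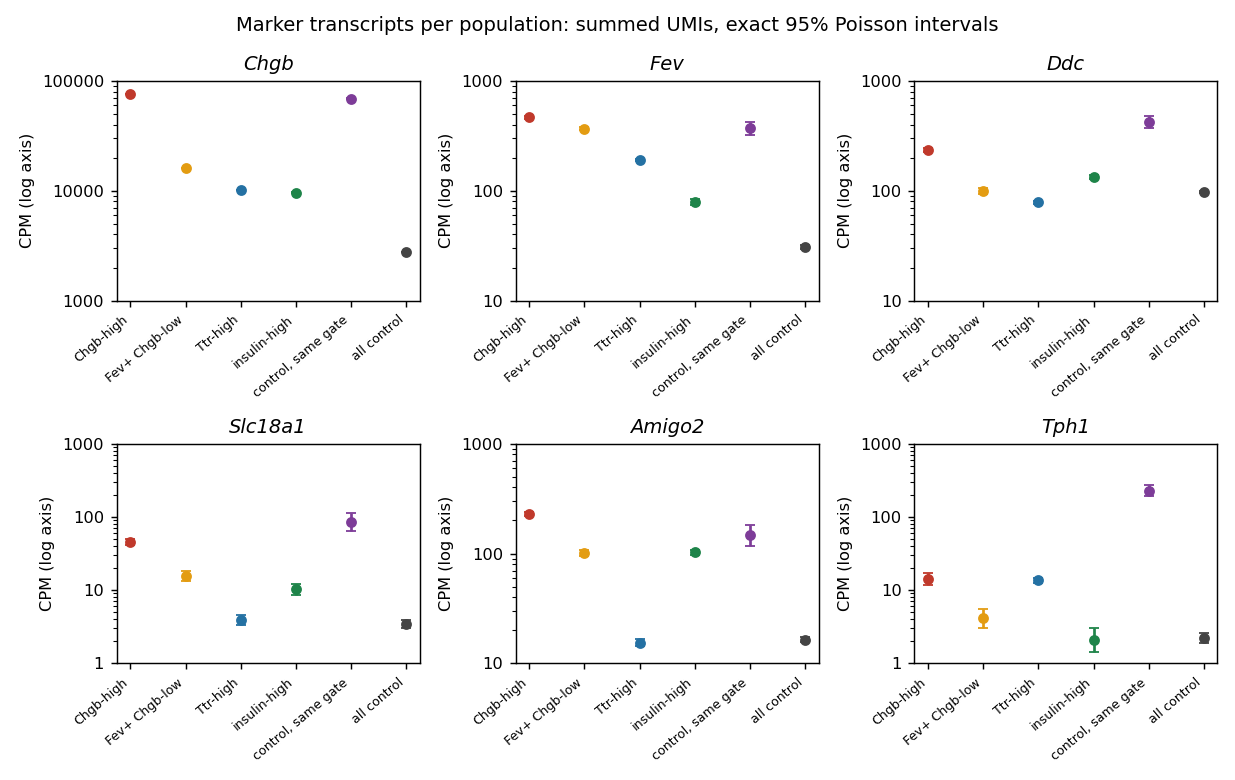
Level of each marker gene in CPM (y axes, log) in 4 populations of the Isl1CKO library, in control cells that pass the same limits and in all control cells; points are summed UMIs over the cells of a population and bars exact 95% Poisson intervals for counting error. Slc18a1 reached 45.3 CPM in the Chgb-high cells and 3.90 CPM in Ttr-high cells, while Tph1 was 14.2 and 13.7 CPM in the same populations and 229 CPM in the 32 control cells.

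A Fev UMI was found in 98.9% of the Chgb-high cells, a Ddc UMI in 83.3%, an Amigo2 UMI in 92.7% and a Slc18a1 UMI in 46.6%. With every cell thinned to 5000 UMIs these shares were 80.05% for Fev, 56.7% for Ddc, 62.4% for Amigo2 and 19.95% for Slc18a1. The thinned shares in the Fev-positive Chgb-low cells were 26.0% for Ddc and 7.74% for Slc18a1. In insulin-high cells, with a median of 38693 UMIs, a Ddc UMI was found in 93.7% and an Amigo2 UMI in 91.6%. Their thinned shares were 48.3% for Ddc, 37.6% for Amigo2, 32.9% for Fev and 3.66% for Slc18a1. Collagen-high cells of the same library, which should lack these transcripts, served as a check for free RNA. Of 14 such cells, with a median of 6763.5 UMIs, none held a Fev, Slc18a1, Amigo2 or Tph1 UMI (exact upper limit 23.2% for each) and 1 held a Ddc UMI. Some other transcripts were found in them: Chgb in 9 of the 14, Chga in 13, Iapp in 11, Pyy in 3, Gch1 in 2 and Ptger3 in 1. Shares of cells with a UMI are for that reason not given for Chgb, Chga and Iapp.

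Tph1 went against the enterochromaffin name. Tph1 (chr7:46644641-46672537) had 120 UMIs in the 436 cells, 14.2 CPM (11.8 to 17.0), against 9.63 CPM in the rest, a log2 ratio of 0.56. Ttr-high cells had nearly the same level, 13.7 CPM. A Tph1 UMI was found in 32 Chgb-high cells (7.34%, interval 5.07 to 10.2) and in 221 Ttr-high cells (15.4%), which were deeper, with a median of 29001 UMIs. After thinning the shares were 3.21% in Chgb-high cells and 3.47% in Ttr-high cells, against 1.24% in Fev-positive Chgb-low cells. The Tph1 level rested on few cells. A single cell held 56 of the 120 UMIs, 46.7%, without which the level was 7.62 CPM, and 19 of the 32 positive cells held 1 UMI each. Without the 4 cells with at least 5 Tph1 UMIs and the like cells of the other populations, the log2 ratio was -0.08 against the rest and 0.55 in place of 1.78 against Fev-positive Chgb-low cells. These 4 cells held no UMI of Reg4, Lmx1a or Afp. The group is therefore named here by the gene that defines it and not as a cell type.

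**Figure D3:**
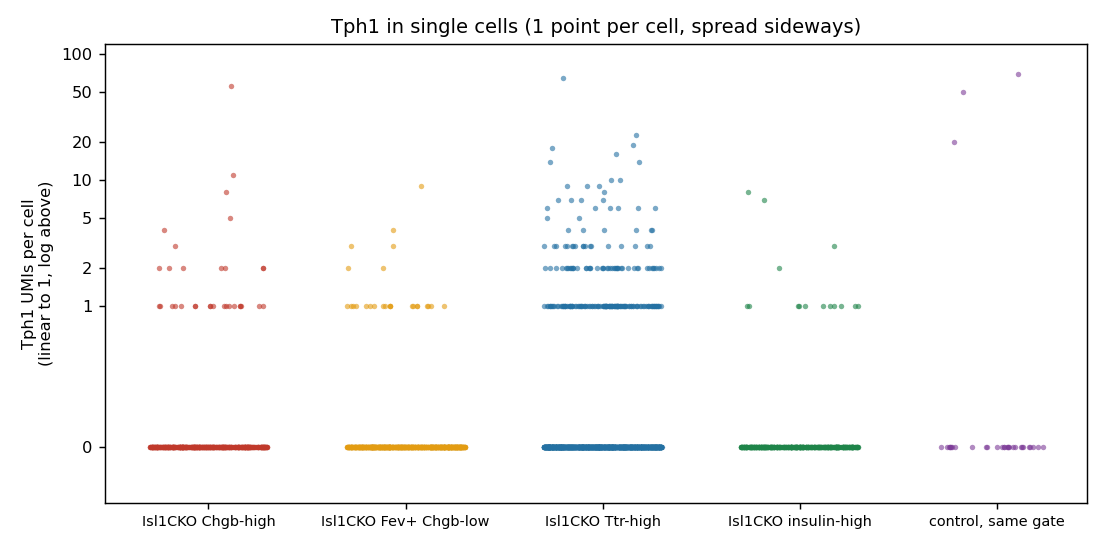
Tph1 UMIs in each cell (y axis, linear to 1 and log above), 1 point per cell spread sideways, for 4 populations of the Isl1CKO library and the control cells that pass the same limits. Most cells of every population lie at 0, 1 Chgb-high cell holds 56 UMIs, and in the control cells 3 of 32 hold all 140 UMIs.

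Among the other genes of serotonin handling, most were close to the level of the rest. Of 10 compared genes of the serotonin list, 2 were at least 2-fold higher in the Chgb-high cells (Ddc and Slc18a1) and none lower, where the whole table of 11849 compared genes had 8.31% higher and 9.77% lower by that measure. The list's median log2 ratio was 0.19, and that of all genes was 0.27. The shares and the median over all genes are the same for every list compared with the rest below. Gch1, which makes the first step towards the hydroxylase cofactor tetrahydrobiopterin, had 230 CPM against 169 CPM in the rest, and Qdpr, which regenerates that cofactor, 207 CPM against 240 CPM. Slc18a2, the monoamine transporter of neurons, had 1.19 CPM. Tph2 and Slc6a4, the hydroxylase and the plasma membrane transporter of serotonergic neurons, had no UMI, and Lmx1a had 2. Lmx1b, its relative in serotonergic neurons, had 16.02 CPM against 6.30 CPM in the rest, a log2 ratio of 1.35. Hdc, which makes histamine, had 24.7 CPM against 7.61 CPM, a log2 ratio of 1.70 that was 0.98 among cells with at least 6% Chgb. None of the 12 serotonin receptor genes reached 50 UMIs, the minimum for a comparison.

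The broader enterochromaffin list held 12 compared genes, of which 7 were higher and 2 lower, with a median log2 ratio of 1.17. This list was drawn up with earlier results of these data known. Tac1, which encodes substance P, had 111 CPM against 19.6 CPM in the rest (log2 ratio 2.50) and was found in 36.2% of the cells. Rab3c, a vesicle GTPase, had 61.5 CPM against 20.1 CPM (1.61). Cartpt, the CART peptide precursor, had 315 CPM against 150 CPM (1.07), a ratio under 2-fold in 7 of the alternative settings, with its lowest log2 value, 0.72, among cells with Y-linked UMIs and no Xist. The 2 lower members were Adra2a, an adrenergic receptor, at 1.31 CPM against 2.95 CPM (under 2-fold in some alternative settings), and Ucn3, a peptide of mature beta cells, at 4.27 CPM against 13.3 CPM. Ucn3 was the other way round among cells with Y-linked UMIs and no Xist, with a log2 ratio of 1.01.

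Several transcription factors of endocrine precursors were higher in the Chgb-high cells than in the rest of the library, and none of these was 2-fold higher than in the Fev-positive Chgb-low cells. Of 15 compared genes of the precursor list, 6 were higher (Neurog3, Fev, Insm1, Sox4, Gadd45a and Mfng) and 2 lower (Cck and Sox9), with a median log2 ratio of 0.52, and Gadd45a was under 2-fold in some alternative settings. Neurog3, the factor that starts endocrine differentiation, had 66.9 CPM in Chgb-high cells, 77.8 CPM in Fev-positive Chgb-low cells and 15.9 CPM in the rest as a whole. Neurog3 UMIs were found in 51.6% of the Chgb-high cells. Its exons overlap Fam241b on the opposite strand, which had 515 UMIs to the 564 of Neurog3, and no source used here states the strand setting of the counting. Insm1, a zinc-finger factor of endocrine differentiation, had 181 CPM against 68.2 CPM in the rest, and Sox4 319 CPM against 115 CPM. Sox9, a factor of duct and progenitor cells, was at 0.237 CPM against 3.90 CPM.

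Of 14 compared endocrine transcription factors, 4 were higher than in the rest, among them Rfx3, Insm1 and Lmx1b, and none was lower, and Rfx3 was under 2-fold in some alternative settings. Lhx1, a LIM-homeodomain relative of Isl1, had 63.7 CPM against 13.6 CPM in the rest (2.23). Nkx6-1, a homeodomain factor of beta cells and their precursors, had 298 CPM against 90.1 CPM (1.73), and Mnx1, another factor of beta cells, 9.73 CPM against 1.82 CPM (2.42). Mafa, a factor of mature beta cells, had no UMI.

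The hormone transcripts of alpha, delta and epsilon cells were low in the Chgb-high cells. Gcg had 21.9 CPM against 1328 CPM in the rest, a log2 ratio of -5.92. Sst had 1.78 CPM against 141 CPM (-6.31), and Ghrl 7.0 CPM against 807 CPM (-6.85). Low Ttr was a condition of the rule, and the rest is rich in Ttr-high cells, so for genes of Ttr-high cells this comparison follows from the rule. Of 9 compared alpha cell genes, 6 were lower, among them Irx1 (7.12 CPM against 172 CPM), Irx2 (12.3 CPM against 138 CPM) and the amino acid transporter Slc38a5 (216 CPM against 7842 CPM). Against the Fev-positive Chgb-low cells, which also have low Ttr, 6 of 11 were lower and none higher, where 3.59% of all 10678 genes were lower and 0.993% higher. Gcg was at 318 CPM, Sst at 470 CPM and Ghrl at 866 CPM in those cells, each with a median of 0 per cell. Of the 647 cells, 30 had at least 0.1% of their UMIs in Gcg, 18 in Sst and 70 in Ghrl, against 2, 0 and 0 of the 436 Chgb-high cells.

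Other hormone transcripts were present in part of the cells. Iapp, the amylin gene of beta cells, had 21890 CPM against 10108 CPM in the rest and made up at least 1% of UMIs in 64.9% of Chgb-high cells, against 26.3% of the rest. Its log2 ratio of 1.11 was 0.64 among cells with under 5% insulin. Pyy, the peptide YY gene, had 4745 CPM in the Chgb-high cells, 8887 CPM in Fev-positive Chgb-low cells and 3178 CPM in the rest as a whole. Pyy was uneven: it took at least 1% of UMIs in 36 Chgb-high cells (8.26%) and at least 0.1% in 82 (18.8%). Ppy had 286 CPM against 315 CPM. Of 11 compared enteroendocrine peptide genes, 2 were higher (Tac1 and Cartpt) and 8 lower, among them Sct (16.5 CPM against 385 CPM), Gast (49.4 CPM against 116 CPM) and Cck (11.7 CPM against 44.6 CPM).

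Most granule genes were within 2-fold of the rest, as were most of all compared genes, of which 8.31% were higher and 9.77% lower. Chga, the chromogranin A gene, had 31560 CPM against 24683 CPM, a log2 ratio of 0.35. Of 9 compared granins and granule cargo genes, excluding Chgb, none was higher and 1 lower, the granin-like peptide gene Vgf, at 27.3 CPM against 289 CPM. Vgf took a median of 0.0394% of a cell's UMIs in Ttr-high cells and 0 in Chgb-high, Fev-positive Chgb-low and insulin-high cells. None of the 9 genes was 2-fold apart from Fev-positive Chgb-low cells. Pcsk2, a prohormone convertase, had 2784 CPM against 5693 CPM in the rest, a log2 ratio of -1.03 that was -0.97 with a Chgb limit of 3%, and Pcsk1, its partner, 93.6 CPM against 90.3 CPM. Of 18 exocytosis genes, 4 were higher than in the rest (Syt1, Syt4, Rab3a and Cadps), of which Syt1 and Rab3a fell under 2-fold in some alternative settings, and relative to the median gene 1 was, Syt4. Syt4, an atypical synaptotagmin, had 60.7 CPM in Chgb-high cells, 21.1 CPM in Fev-positive Chgb-low cells and 16.4 CPM in the rest as a whole.

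Of 14 compared excitability channel genes, 6 were higher and 1 lower. The voltage-gated calcium channel genes Cacna1a (82.2 CPM against 38.1 CPM) and Cacna1h (11.6 CPM against 2.25 CPM) and the calcium channel subunit gene Cacna2d1 (391.5 CPM against 169 CPM) were among the higher. The lower gene was Abcc8, the sulfonylurea receptor of the KATP channel, at 10.2 CPM against 71.9 CPM (log2 ratio -2.82), and it was also lower than in Fev-positive Chgb-low cells (45.9 CPM). None of the 6 higher genes was 2-fold apart from the Fev-positive Chgb-low cells, and relative to the median gene 1 of the 6 was higher than the rest, Cacna1h. Cacna1a, Kcnh2 and Kcnq1 were under 2-fold in some alternative settings. Of 16 unfolded protein response genes 4 were lower than in the rest and none higher (7 lower relative to the median gene), with Manf at 374 CPM against 994 CPM. Against Fev-positive Chgb-low cells, none of 14 compared genes of this list was 2-fold apart, with a median log2 ratio of -0.24. Of 19 oxidative phosphorylation genes none was 2-fold apart from the rest.

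Cell cycle transcripts were low. Of 15 compared cell cycle genes 13 were lower than in the rest and 12 lower than in Fev-positive Chgb-low cells, and none was higher in either. Mki67 had 6.76 CPM in Chgb-high cells, 34.5 CPM in Fev-positive Chgb-low cells and 35.2 CPM in the rest, and Top2a 4.39, 40.0 and 52.3 CPM in the same order. The median log2 ratio of the list was -3.27 against the rest.

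Outside the lists, Egflam, Adcy8, Steap4, Tmem252, Ptger3, Vstm2a, Vim, S100z, Gpc6 and Sulf1 had the highest ratios to the rest, ranked by the lower bound of their intervals. Egflam, a matrix protein gene, had 26.3 CPM (23.0 to 30.04) against 1.61 CPM, a log2 ratio of 4.03 (3.69 to 4.37). Adcy8, an adenylyl cyclase stimulated by calcium, had 7.24 CPM against 0.346 CPM (4.39), and Ptger3, the prostaglandin E2 receptor EP3 (chr3:157566892-157645888), 62.4 CPM against 5.20 CPM (3.58). Steap4, a metalloreductase, had 30.5 CPM against 2.03 CPM (3.91). The heparan sulfate genes Gpc6, a glypican, and Sulf1, a sulfatase, had log2 ratios of 3.10 and 3.35, and Vstm2a, S100z and Tmem252 had 3.41, 3.18 and 3.81. Vim, the intermediate filament vimentin (chr2:13573927-13582826), had 218 CPM against 25.5 CPM (3.10). Vim is also a mesenchymal gene, and the summed level of the mesenchymal markers was 1.42 CPM in the Chgb-high cells and 92.2 CPM in the rest.

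Because the gate and the rest differ in Ttr and insulin by construction, the Fev-positive Chgb-low cells were the nearer comparison. There 106 genes were at least 2-fold higher and 383 lower, so that higher genes were 21.7% of the calls, and 33.5% with hormone, Chgb, Ttr, mitochondrial, acinar and erythroid UMIs left out. Against the rest they were 46.0% of the calls, and 32.6% with mean per-cell CPM. Tmem252 had 20.05 CPM in Chgb-high cells and 2.79 CPM in Fev-positive Chgb-low cells (2.84), Wfikkn2, a secreted inhibitor of GDF ligands, 36.3 and 6.55 CPM (2.47), and Dkk3, a secreted Dickkopf-family protein, 40.0 and 8.38 CPM (2.25). Aldh1a3, a retinaldehyde dehydrogenase, had 14.4 and 2.698 CPM in the same order (2.41). Vim, Ptger3, Steap4, Vstm2a and S100z were again among the 10 highest, with log2 ratios of 2.16, 2.25, 2.35, 2.24 and 2.24. Of the serotonin list 3 of 9 were higher, Slc18a1 at 1.54, Ddc at 1.24 and Tph1 at 1.78, the last of which rested on the few cells described above. Of the enterochromaffin list 4 of 10 were higher and none lower, these 3 genes and Amigo2 at 1.18, while Fev (0.34), which the choice of these cells used, Tac1 (0.31) and Cartpt (0.07) were not 2-fold apart. The immediate early genes Fos, Jun and Egr1 were lower, with Fos at 17.7 CPM against 44.7 CPM. Of the 42 named genes at least 2-fold apart from Fev-positive Chgb-low cells, 38 were so under every alternative setting tried, and Tph1, Egr1, G6pc2 and Gast were not.

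**Figure D4:**
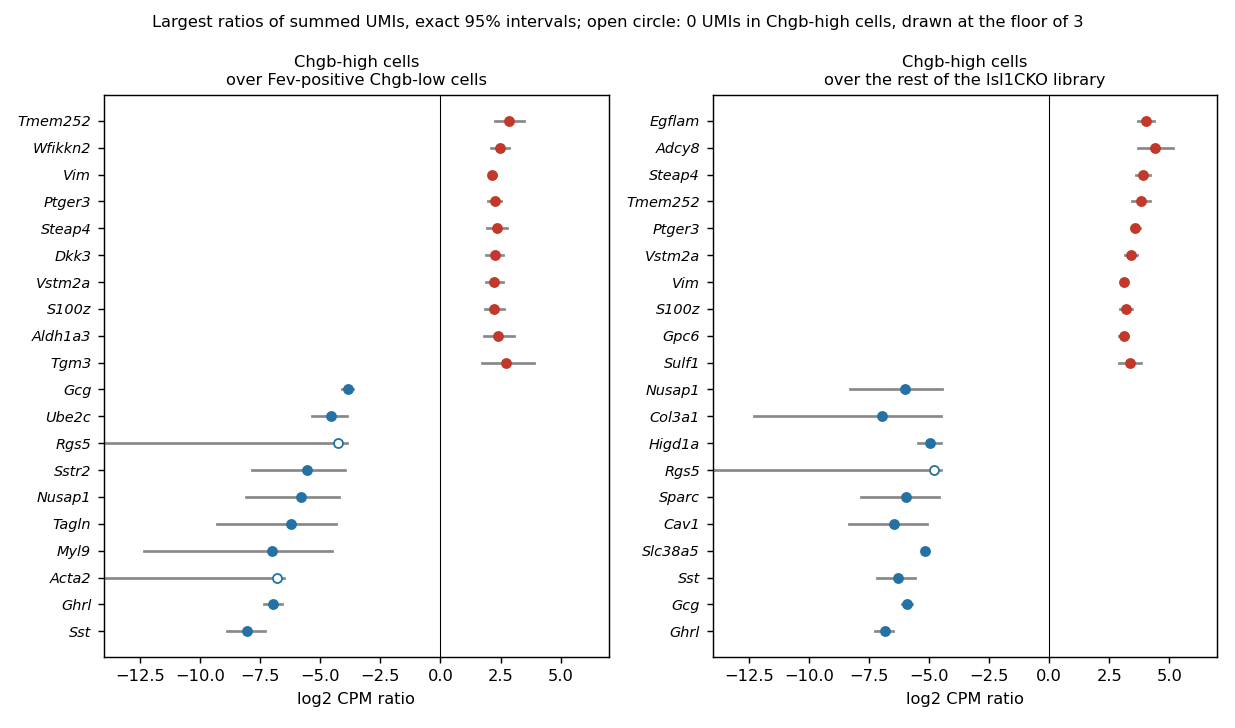
Log2 CPM ratio (x axes) for 10 genes at either end of the ranking, Chgb-high cells over Fev-positive Chgb-low cells (left) and over the rest of the Isl1CKO library (right), with exact 95% intervals for counting error; an open circle marks 0 UMIs in the Chgb-high cells, drawn at the floor of 3 UMIs. Tmem252, Vim, Ptger3, Steap4, Vstm2a and S100z are among the highest on both sides, and Gcg, Sst, Ghrl, Nusap1 and Rgs5 among the lowest.

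The 436 cells fell into several clusters. When the Isl1CKO cells were clustered without Chgb, Ttr, Ins1 and Ins2, 71.5% of the nearest neighbours of a Chgb-high cell were also Chgb-high, against 5.95% for other cells. Of 17 clusters, cluster 2 held 250 of the 436 (57.3%), and these made up 74.2% of that cluster, whose leading genes were Ptger3, Egflam, S100z, Tmem252 and Adcy8. Cluster 5, with Ppy and Pyy among its leading genes, held 97 (22.2%), cluster 9, led by Ildr2, Kcnh1 and Pyy, 46 (10.6%), and cluster 7, led by Sst, Hhex and Tac1, 34 (7.80%). The remaining 9 cells were spread over other clusters, 2 of them in cluster 16, led by the acinar genes Dmbt1, Serpini2 and Prss3. Since these genes were used to cluster the cells, the differences between clusters are a description.

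Slc18a1 had 46.7 CPM in cluster 2, 42.9 CPM in cluster 5 and 48.2 CPM in cluster 9, and Ddc 239, 228 and 263 CPM in the same order. Cluster 7 had 40.5 CPM Slc18a1 but less Ddc, 133 CPM (103 to 168). Several genes with high ratios in the whole group were higher in cluster 2 than in cluster 5. Ptger3 had 92.8 CPM in cluster 2 against 13.7 CPM in cluster 5, S100z 53.4 against 2.38 CPM, Dlk1, a non-canonical Notch ligand, 187 against 20.3 CPM, and Cartpt 327 against 80.5 CPM. Ptger3 and S100z were also lower in cluster 9, at 35.1 and 7.01 CPM, while Dlk1 and Cartpt had 210 and 386 CPM there. The peptide genes Pyy and Ppy ran the other way. Pyy had 323 CPM in cluster 2 against 8746 CPM in cluster 5, and Ppy 19.99 against 612 CPM. Of 7444 genes compared between these 2 sets of Chgb-high cells, 413 were at least 2-fold higher in cluster 2 and 73 lower. Insulin also differed, with Ins2 at 51205 CPM in cluster 9, 23965 CPM in cluster 2 and 1719 CPM in cluster 7.

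**Figure D5:**
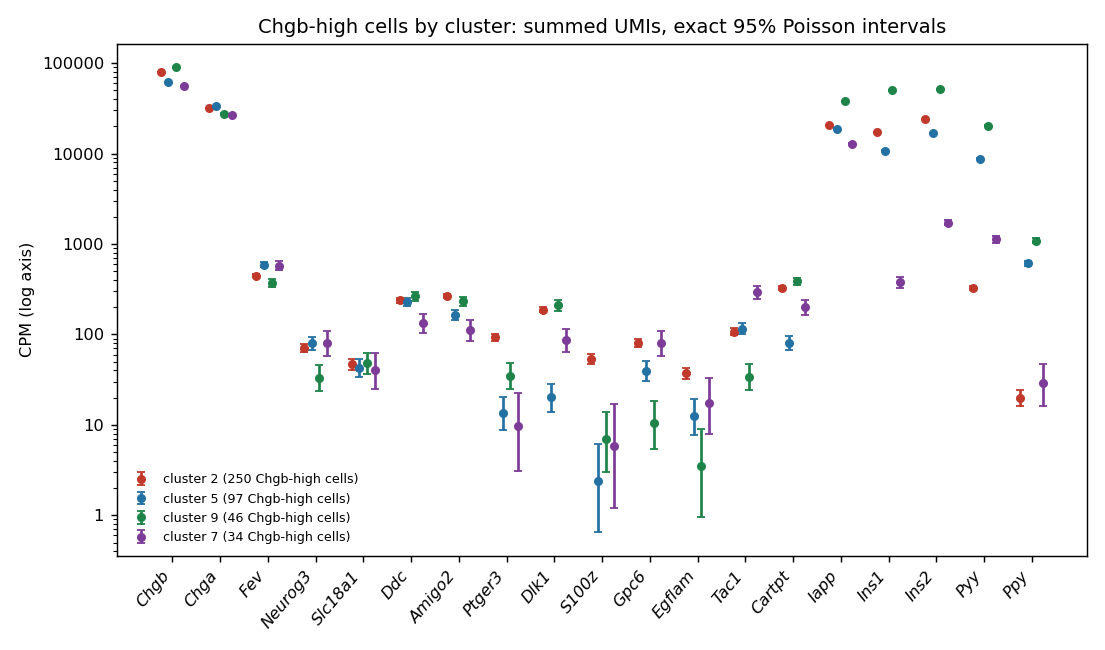
Level in CPM (y axis, log) of marker, hormone and leading genes in the Chgb-high cells of the 4 clusters that hold most of them; points are summed UMIs and bars exact 95% Poisson intervals. Slc18a1 lies between 40.5 and 48.2 CPM in all 4, while Ptger3, S100z and Dlk1 are higher in cluster 2 than in cluster 5 and Pyy and Ppy lower.

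Split by insulin, 258 of the 436 cells had at least 1% of their UMIs in Ins1 and Ins2 and 178 less. Slc18a1 had 49.1 CPM in the cells with insulin and 38.3 CPM in those below the limit, and Ddc 253 and 199.5 CPM. Of 7948 genes compared, 48 were at least 2-fold higher in the cells with insulin, among them Msln (74.9 CPM against 3.73 CPM), the ciliary neurotrophic factor receptor Cntfr (55.9 CPM against 10.8 CPM) and the glucose transporter Slc2a2 (53.7 CPM against 11.2 CPM). The 65 lower genes included Tac1 (57.3 CPM against 210 CPM), Tph1 (5.84 CPM against 29.8 CPM), Syt1 (5.11 CPM against 27.1 CPM) and Slc38a5 (117 CPM against 401 CPM). The Tph1 values rest on the few cells described above.

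Sex-linked transcripts were unevenly spread. Of the Chgb-high cells, 61 held Xist and no Y-linked UMI and 347 the reverse, so Xist-only cells were 14.95% of those with 1 signal (11.6 to 18.8), against 39.03% (918 and 1434 cells) in the other Isl1CKO cells. In cluster 2 the Chgb-high cells counted 4 Xist-only and 230 Y-only (1.71%), and the cells of that cluster outside the Chgb-high group 1 and 75 (1.32%). In cluster 5 the share among Chgb-high cells was 36.6%, in cluster 9 45.2% and in cluster 7 6.45%. Pyy had 19311 CPM in Xist-only Chgb-high cells against 1577 CPM in Y-only ones, and Slc18a1 22.9 CPM against 51.3 CPM. The library pools 6 animals whose sexes the labels do not give, so sex and single animals cannot be told apart. Among Y-only Isl1CKO cells the Chgb-high share was 19.5%, and among Y-only cells the log2 ratios of Slc18a1, Ddc and Amigo2 to Fev-positive Chgb-low cells were 1.61, 1.23 and 1.23.

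Marker lists of other cell types differed in how far they were absent. Of 10 mast cell markers, which matter because mast cells make serotonin and histamine in rodents, 7 had no UMI in the Chgb-high cells (Cpa3, Mcpt4, Tpsb2, Tpsab1, Cma1, Ms4a2 and Fcer1a), and the list summed to 69.3 CPM in Chgb-high cells and 37.1 CPM in the rest. Of 10 markers of serotonergic or enteric neurons 5 had no UMI, among them Tph2, Slc6a4, Prph and Chat, and the list summed to 240 CPM against 131 CPM. Acinar markers summed to 348 CPM against 1009 CPM, and 2 of the 436 cells had at least 1% of their UMIs in them. Erythroid markers summed to 4.27 CPM in Chgb-high cells, 1869 CPM in Fev-positive Chgb-low cells and 289 CPM in the rest. Ductal markers summed to 513 CPM in Chgb-high cells and 513 CPM in the rest with none of the 7 at 0, and most of that sum was the keratin gene Krt7, at 477 CPM in Chgb-high cells. Immune markers summed to 145 CPM against 96.9 CPM, with 3 of 7 at 0 (Ptprc, C1qb and Adgre1). The part of these transcripts in the differences above was not tested.

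Cells that passed the limits made up 14.6% of Isl1CKO cells, against 32 of 2496 control cells (1.28%, 0.879 to 1.81). Each value comes from 1 pooled library, and control cells were taken from an unfiltered matrix by a threshold while the Isl1CKO barcodes had been filtered before deposit. With Chgb of at least 6% the shares were 8.87% in Isl1CKO and 0.601% in the control. The 32 control cells had 612436 UMIs, a median of 16589.5 per cell and 68988 CPM Chgb.

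The Isl1CKO and control Chgb-high cells were similar in Fev (467 against 372 CPM), Neurog3 (66.9 against 66.9 CPM), Nkx6-1 (298 against 258 CPM) and Chga (31560 against 29946 CPM). Slc18a1 had 45.3 against 86.5 CPM and Ddc 234 against 426 CPM in the Isl1CKO and control cells. The 3 control cells with at least 5 Tph1 UMIs held 19 of the 53 Slc18a1 UMIs, 16 of them in 1 cell. They also held 51 of the 261 Ddc UMIs. After thinning, a Slc18a1 UMI was found in 37.5% of the 32 control cells (21.1 to 56.3), against 19.95% of the Isl1CKO Chgb-high cells. For Ddc the thinned shares were 71.9% (53.3 to 86.3) and 56.7%. Of 6392 genes compared, 598 (9.36%) were at least 2-fold higher in Isl1CKO Chgb-high cells and 27 (0.422%) lower. The minimum of 50 UMIs demands a higher CPM of a gene that is higher in the smaller control sum, and at 10 UMIs the counts were 797 and 718. Of 8 compared serotonin genes none was higher and 1 lower, Tph1, at 14.2 against 229 CPM, and of 10 enterochromaffin genes none was higher and 3 lower, Tph1, Tac1 and Reg4. These 3 differences came from few control cells. Of the 32 cells 3 held all 140 Tph1 UMIs, with 20 to 70 each. A single cell among the 3 held 864 of the 866 Reg4 UMIs, and a single cell held 190 of the 244 Tac1 UMIs. Without the cells with at least 5 Tph1 UMIs, the log2 ratio of Tac1 was 0.11 in place of -1.84 and that of Tph1 -0.25 in place of -4.01. In those control cells with Tph1, 4 Lmx1a UMIs were found. Reg4 had no UMI in the 436 Isl1CKO cells.

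Among the 10 highest ratios of Isl1CKO over control Chgb-high cells were Cidea, a lipid droplet protein (141 CPM in Isl1CKO against 19.6 CPM in control, log2 ratio 2.85), and Adnp, a zinc-finger factor (32.7 against 1.63 CPM, 4.33). Basp1 (4.59), S100z (4.37) and Cntfr (3.62) were also among them. After thinning every cell to 5000 UMIs they were at 0.99, 0.88 and 0.93. The 32 control cells held 612436 UMIs before thinning, so a control level near that of Adnp rests on very few UMIs. In the smaller thinned total a control sum of 0 still counts as 3 UMIs, which limits how high a ratio can be. The thinned values therefore cannot show whether these differences were smaller. Abcc8 was lower, at 10.2 against 83.3 CPM. Gcg and Sst were at 21.9 and 1.78 CPM in Isl1CKO Chgb-high cells and at 28517 and 5246 CPM in the control ones. Of the 32 control cells, 2 had at least 1% of their UMIs in Gcg, up to 22.4%, with a median of 0.0692%, and 2 had at least 1% in Sst, up to 6.51%, with a median of 0.0102%. Control barcodes with 1 to 99 UMIs, which hold free RNA and no cell, had 47403 CPM Gcg and 16013 CPM Sst, and the part of such free RNA in the control cells was not tested.

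Ins2 alone had 24356 CPM in the Isl1CKO Chgb-high cells, against 254442 CPM in all 2496 control cells. Between these populations the counts depended on the scaling. Of 11378 genes, 34.9% were at least 2-fold higher in the Isl1CKO Chgb-high cells and 8.35% lower, with a median log2 ratio of 0.84. Higher genes made up 80.7% of the calls with all UMIs, and 23.1% when hormone, Chgb, Ttr, mitochondrial, acinar and erythroid UMIs were left out of the total. Genes are therefore counted here as higher or lower relative to that median. On that basis 557 genes were higher and 1650 lower. Of 14 compared enterochromaffin genes 8 were higher (Chga, Tac1, Cartpt, Amigo2, Fev, Tph1, Slc18a1 and Rab3c) and 4 lower (Piezo2, Adra2a, Reg4 and Ucn3). Of 16 beta cell genes 11 were lower and none higher, of 12 alpha cell genes 8 were lower and none higher, and of 15 cell cycle genes 14 were lower. No exocytosis gene of 18 and no oxidative phosphorylation gene of 19 was 2-fold apart.

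Among the 10 genes with the highest ratios to control cells were Vstm2a (38.8 against 0.193 CPM, log2 ratio 7.65), Tmem252 (20.05 against 0.359 CPM, 5.80) and Nt5e, the ectonucleotidase CD73 (70.6 against 1.49 CPM, 5.57). The log2 ratios of single genes given here are plain CPM ratios, from which the median over all genes was not subtracted. Cartpt had 315 against 7.09 CPM (5.47), Steap4 30.5 against 0.662 CPM (5.52), Igfbp3 26.2 against 0.607 CPM (5.43) and the tight junction gene Cldn5 91.8 against 3.30 CPM (4.799). The Fev-positive Chgb-low cells of the Isl1CKO library also had more of these than the control, for instance 29.3 CPM Nt5e and 36.9 CPM Cldn5. Among the lowest ratios were those of Sst (-13.05), Gcg (-11.28) and Ppy (-6.20), and Npy had no UMI in Chgb-high cells against 33.6 CPM in control cells.

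Within the 436 cells, no gene followed Tph1 closely. Over these cells and 7299 genes the highest Spearman rho with Tph1 was 0.25, for Vgf, and the most negative -0.19, for Acly. Iapp and Igfbp7 had a rho of 0.36, Iapp and Pcsk1n -0.42, and Pyy and Ppy 0.35. Every cell was thinned to 5000 UMIs for these values. Cells share a library, and in sparse counts values of this size are no finding.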

How the data were processed

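UMI counts per gene and barcode were measured in 1 library per genotype, made with the Chromium 3′ v3.1 kit from sorted tdTomato+ cells after dissociation with actinomycin D. The deposited values are raw counts; STARsolo, STAR 2.7.3a and the build GRCm38.p6 are named per the submitters' processing notes, which also name Seurat 4.3.0.1 without a role. Isl1CKO barcodes were used as deposited. For the unfiltered control matrix, the threshold was 1/10 of the UMIs at the 99th percentile of the top 3000 barcodes.

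UMIs were summed over cells to CPM. A gene was compared when the population with the higher CPM held at least 50 UMIs, and called at a ratio of at least 2. Exact Poisson, Clopper-Pearson and conditional binomial 95% intervals cover counting error only, and a sum of 0 was set to 3 UMIs. Clusters used 2000 genes, 30 components, 15 neighbours and resolution 1, without Chgb, Ttr, Ins1 and Ins2 (Python 3.11.15, scanpy 1.11.5, igraph 0.11.9). Also left out of the clustering were Xist, the Y-linked genes used for the sex signal, mitochondrial, ribosomal, acinar and erythroid genes and Malat1. The scripts were tested on simulated data. The genes named are the markers, list members and, per comparison, the 10 highest and 10 lowest by the interval bound nearest 0, leaving out rule, mitochondrial, ribosomal, sex-linked, acinar, erythroid and uncharacterised genes. Members and lists were chosen with earlier results of these data known. The comparison with control Chgb-high cells and the splits of the 436 cells were added after seeing the data. Some list members are not reported here by name.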

Additional observations from a re-analysis of the deposited data

How the results depend on the processing

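No paired analysis was possible because each genotype is 1 pooled library and no result comes from a test. For the same reason no library could be left out, and intervals cover counting error only. The restriction to cells with Y-linked UMIs and no Xist (Y-only), the removal of cells with at least 5 Tph1 UMIs and the comparison with control Chgb-high cells were chosen after seeing the data. The Isl1CKO share of 14.6% was 17.9% with Chgb of at least 3%, 8.87% with at least 6%, 10.8% with insulin under 5% and 19.5% among Y-only cells. The control share of 1.28% was 0.601% with Chgb of at least 6%. Against the rest, the 985 higher genes became 1807 at a minimum of 10 UMIs, 494 at 200 UMIs, 589 with mean per-cell CPM and 374 with cells thinned to 5000 UMIs, and the 1158 lower genes 622 at 200 UMIs and 632 when thinned. Against Fev-positive Chgb-low cells, the 106 higher genes became 281 at 10 UMIs, 53 at 200 UMIs and 56 when thinned, and the 383 lower genes 1183, 112 and 148 in the same order. Against all control cells, the 3974 higher genes became 2322 at 200 UMIs, 511 without hormone, Chgb, Ttr, mitochondrial, acinar and erythroid UMIs, 1892 with mean per-cell CPM and 1198 when thinned, and the 950 lower genes 449 at 200 UMIs, 1698 without those UMIs and 602 when thinned. Against control Chgb-high cells, the 598 higher genes became 150 at 200 UMIs, and the 27 lower genes 12 with Chgb of at least 6%, 718 at 10 UMIs, 6 at 200 UMIs, 7 when thinned and 12 without the cells with at least 5 Tph1 UMIs. A higher minimum tests fewer genes; the cause of the other shifts was not tested. The direction turned for 4 single genes, again with the cause not tested: Tac1 against control Chgb-high cells (log2 ratio -1.84, and 0.11 without the cells with at least 5 Tph1 UMIs), Ucn3 against the rest (-1.64, and 1.01 in Y-only cells), Sct against control (1.02, and -0.0031 with Ttr under 2%) and Cck against control (1.73, and -1.49 in Y-only cells). Of the named genes at least 2-fold apart, 56 of 73 against the rest, 38 of 42 against Fev-positive Chgb-low cells, 50 of 66 against control and 14 of 22 against control Chgb-high cells were so under every alternative.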
